A study of Mus musculus with 2 samples.

Results

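The 8 mouse genes described here encode T-box transcription factors, namely Tbx2, Tbx3, Tbx4, Tbx5, Tbx15, Tbx18, Tbx20 and Tbx22. They were chosen by name as T-box genes, though with earlier results of these data known. All 8 had a row among the 43346 Ensembl genes of the quantification tables. The 2 total RNA-seq libraries came from the facial prominence, the embryonic tissue of the face and jaws, of healthy B6NCrl embryos at day 15.5 of gestation. Replicate 1 pooled 78 embryos and replicate 2 pooled 62, both of mixed sex and under the same donor label, and each library started from 10 ng of RNA longer than 200 nucleotides. A user manual for low-input library preparation is linked in the labels, so the sources used here do not settle how fully RNA without poly(A) tails, such as some noncoding and antisense RNA, was captured. There was 1 group, with no mutant, treatment or other age, so the values are levels and their spread between 2 pools, and no p-value is given. That spread may include technical differences between the libraries.

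T-box proteins bind DNA through a shared domain, the T-box, and switch their target genes on or off during the patterning of organs. Tbx2 and Tbx3 act mainly as repressors, Tbx4 and Tbx5 as activators known from the limbs, lung and heart, and Tbx15, Tbx18 and Tbx22 as repressors that recruit co-repressors of the Groucho (Tle) family. In the face, loss of Tbx22 in mice and in humans causes cleft palate, and Tbx2 and Tbx3 are also known from the palatal shelves. In mice, Tbx15 is needed for normal skull and skin patterning, Tbx18 marks mesenchyme and the mural cells of vessels, and Tbx20 is a regulator of heart muscle and of cranial motor neurons.

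Counts on mouse genes came to 36048494 in replicate 1 and 36774513 in replicate 2, so that 1 read on a 1 kb transcript was worth 0.0406 TPM and 0.0389 TPM, a unit that corrects for transcript length and depth. Added spike-in RNA took 6.42% of TPM in replicate 1 and 10.1% in replicate 2. The common biological coefficient of variation between the libraries was 0.127. All 8 markers of facial mesenchyme were detected, which here means at least 1 TPM in both libraries, with summed levels of 458 TPM in replicate 1 and 499 TPM in replicate 2. All 4 epithelial markers were also detected, at 1929 and 1713 TPM in sum, as were all 5 skeletal muscle markers, at 1563 and 1180 TPM. The libraries were therefore whole tissue, and the cells that made each T-box RNA were not measured. In such bulk samples fewer cells of a type and less RNA per cell cannot be told apart.

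Tbx3 and Tbx15 made up most of the T-box RNA of the 8 genes. They held 74.1% of the summed TPM of the 8 in replicate 1 and 76.1% in replicate 2. Tbx2 and Tbx18 lay several-fold below them, Tbx4, Tbx22 and Tbx5 lay near 1 TPM, and Tbx20 was close to the limit of detection. Of the 8 genes, 5 were detected, beside 65.4% of all protein coding genes, and the 3 others were Tbx5, Tbx20 and Tbx22. The median level of the 8 genes was 3.74 TPM, beside 6.13 TPM for all 21474 protein coding genes.

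**Figure D1:**
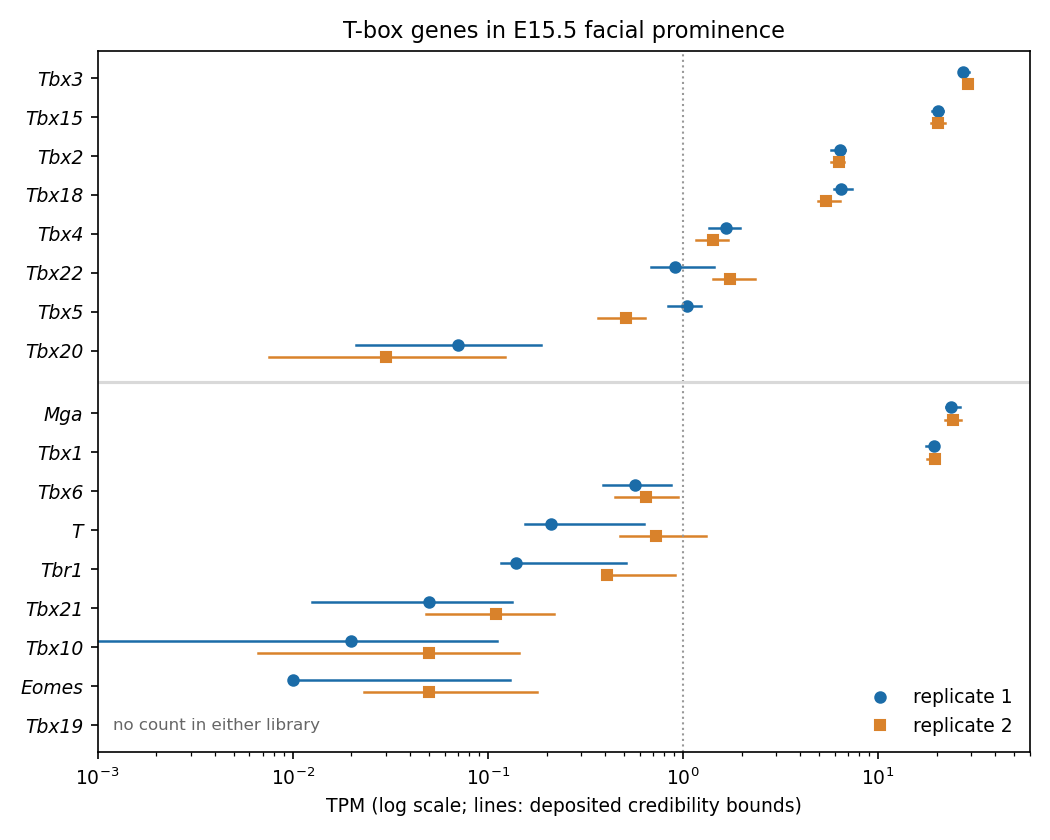
Level of each T-box gene on a log axis in TPM, with replicate 1 as circles, replicate 2 as squares and the deposited credibility bounds as lines. The 8 genes described here stand above the grey line and the other 9 family genes below it, and the dotted line marks 1 TPM. Tbx3 and Tbx15 lie between 20.2 and 28.8 TPM, and Tbx20 lies at 0.07 TPM or below.

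Tbx3, a repressor of the Tbx2 subfamily that acts in limb, mammary gland and palate, was the most abundant of the 8. It is annotated on chromosome 5 from 119670669 to 119684724 on the plus strand of GRCm38. Its level was 27.3 TPM in replicate 1, from 3100.3 expected counts, and 28.8 TPM in replicate 2, from 3460.2 expected counts. The replicates lay close together, and the deposited credibility bounds of 26.0 to 29.2 TPM and 27.5 to 30.4 TPM overlapped. After TMM scaling of the counts the log2 ratio of replicate 1 over replicate 2 was -0.10.

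Tbx15, a repressor of the Tbx1 subfamily known from skin and the skeleton of the skull, came next and was the most even of the 8 relative to its TPM. It lies on chromosome 3 from 99240381 to 99354259 on the plus strand. Its level was 20.2 TPM in replicate 1, from 1671 counts, and 20.3 TPM in replicate 2, from 1696 counts. The log2 ratio of replicate 1 over replicate 2 was 0.04. The lowest Tbx3 library stood above the highest Tbx15 library, and Tbx3 exceeded Tbx15 1.35-fold in replicate 1 and 1.42-fold in replicate 2.

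Tbx2, the closest relative of Tbx3, lies on chromosome 11 from 85832551 to 85841948 on the plus strand. It had 6.42 TPM in replicate 1, from 558 counts, and 6.35 TPM in replicate 2, from 576 counts. Tbx3 RNA was 4.26 times as abundant as Tbx2 RNA in replicate 1 and 4.54 times in replicate 2. The balance between these 2 repressors thus favoured Tbx3 in both pools.

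Tbx18, the closest relative of Tbx15, lies on chromosome 9 from 87702800 to 87731260 on the minus strand. Its level was 6.47 TPM in replicate 1, from 730.4 counts, and 5.39 TPM in replicate 2, from 634 counts. Its libraries lay on either side of those of Tbx2, so the order of Tbx2 and Tbx18 was not set beyond their spread. The scaled counts of replicate 1 were 1.2 times those of replicate 2, with a 95% exact binomial interval of 1.08 to 1.34 that covers counting error only. Tbx15 exceeded Tbx18 3.13-fold in replicate 1 and 3.77-fold in replicate 2.

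Tbx4, an activator known from hindlimb and lung mesenchyme, was a low but detected gene. It lies on chromosome 11 from 85886422 to 85916097 on the plus strand. It had 1.67 TPM in replicate 1, from 118 counts, and 1.43 TPM in replicate 2, from 105 counts. The ratio of the scaled counts of replicate 1 to those of replicate 2 was 1.17, with an interval of 0.893 to 1.54 that includes 1. Both Tbx4 libraries lay below both Tbx18 libraries.

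Tbx22, the palate gene of the family, was lower in replicate 1 in both TPM and scaled counts. It lies on chromosome X from 107667964 to 107688978 on the plus strand. Its level was 0.91 TPM in replicate 1, from 61 counts, and 1.74 TPM in replicate 2, from 120 counts. The scaled counts of replicate 1 were 0.530 times those of replicate 2, with an interval of 0.383 to 0.727. The interval excludes 1, while the deposited bounds of TPM, 0.687 to 1.44 in replicate 1 and 1.42 to 2.34 in replicate 2, just met.

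Tbx5, the activator of forelimb, heart and dorsal retina, differed in the other direction. It lies on chromosome 5 from 119832668 to 119885219 on the plus strand. Its level was 1.05 TPM in replicate 1, from 99 counts, and 0.51 TPM in replicate 2, from 50 counts. The scaled counts of replicate 1 were 2.06 times those of replicate 2, with an interval of 1.45 to 2.96, and the deposited bounds of 0.835 to 1.23 TPM and 0.366 to 0.640 TPM did not overlap. Both Tbx4 libraries lay above both Tbx5 libraries, while the Tbx22 libraries overlapped those of each, so the place of Tbx22 in the order was not set.

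Tbx20, on chromosome 9 from 24718138 to 24774303 on the minus strand, had 5 counts in replicate 1 and 2 counts in replicate 2. These made 0.07 and 0.03 TPM, below every library of Tbx5. At this depth no ratio between the replicates could be given, as the interval ran from 0.426 to 27.4.

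**Figure D2:**
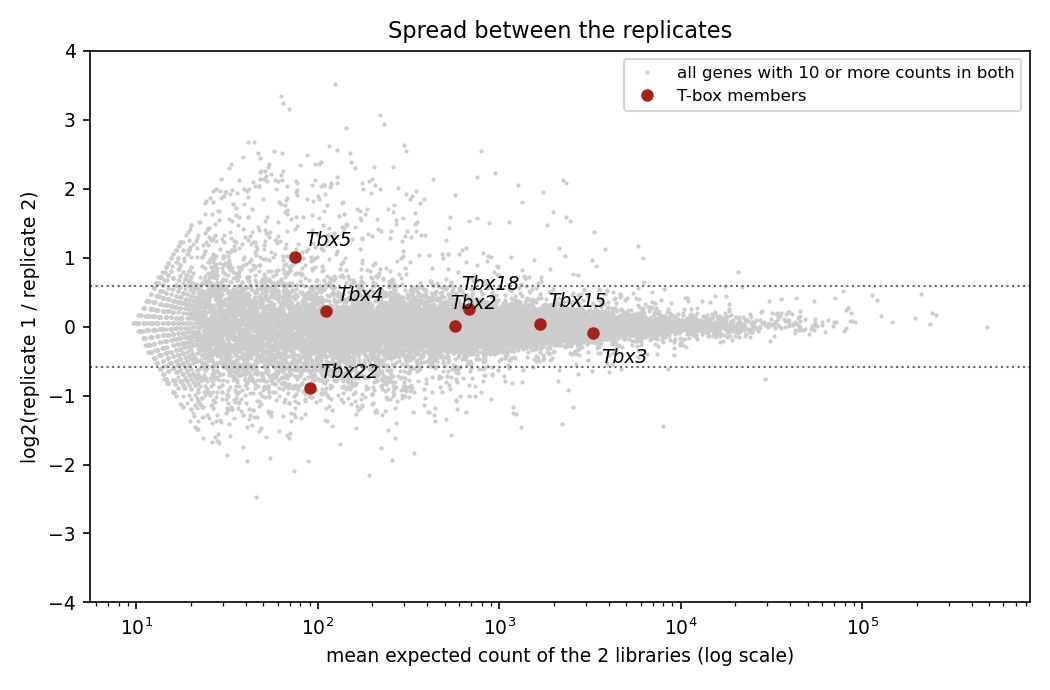
Log2 ratio of replicate 1 over replicate 2 after TMM scaling, against the mean expected count on a log axis, for the 18318 genes that reached 10 counts in each library (grey) and the 7 T-box genes among them (red). The dotted lines mark 1.5-fold, and Tbx5 at 1.02 and Tbx22 at -0.90 are the T-box genes beyond them.

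Of the 7 T-box genes that reached 10 counts in each library, 2 were past 1.5-fold between the replicates, Tbx5 higher and Tbx22 lower in replicate 1. Among all 18318 genes with that many counts 9.08% were past this fold, and among the 2802 genes with a mean count of 50 to 200, a range chosen after seeing the counts of Tbx4, Tbx5 and Tbx22, 20.9% were. The median absolute log2 ratio of the 7 genes was 0.22, beside 0.12 for all genes and 0.27 for genes in that count range. Of the 3 T-box genes in that range 2 were past the fold, and the 4 T-box genes with higher counts were not. Under spike-in scaling 5 of the 7 were past 1.5-fold, and Tbx22, at a log2 ratio of -0.26, was not. This scaling moved the median log2 ratio of all genes by 0.65, a shift that by itself exceeds 1.5-fold. The share of all genes past the fold under it was not computed, so the 5 cannot be read as a trait of the T-box genes. Tbx5 and Tbx22, past the fold under TMM scaling, each had fewer than 100 counts in at least 1 library. The cause of their difference was not tested.

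Marker genes of several tissues also differed between the pools. All 5 cartilage markers were lower in replicate 1, with summed levels of 297 TPM in replicate 1 and 501 TPM in replicate 2 and a median log2 ratio of -0.63. All 5 skeletal muscle markers were higher in replicate 1, with a median log2 ratio of 0.39. Tbx22 was likewise lower and Tbx5 higher in replicate 1, but 2 libraries allow only these directions, so a shared one holds no pattern. Of the 8 facial mesenchyme markers 6 were also lower in replicate 1. Of the 5 markers of dermis and hair dermal papilla 4 were higher in it. Whether tissue composition had a part in the Tbx22 or Tbx5 values was not tested.

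Lists for the organs in which Tbx4, Tbx5 and Tbx20 are best known were detected in part, beside the 65.4% of all protein coding genes. Of 6 heart muscle markers 4 were detected, with sums of 20.8 TPM in replicate 1 and 16.6 TPM in replicate 2. Nkx2-5 alone had 9.14 and 6.93 TPM of these sums. Of 6 eye markers 2 were detected, at 11.3 and 19.4 TPM in sum, and of 5 branchiomotor neuron markers only Isl1 was, in a list that summed to 14.7 and 17.9 TPM. Of 6 limb markers only Pitx1, which the first pharyngeal arch also expresses, was detected, and the limb genes Hoxd11, Hoxd13 and Hoxa11 had no count in either library. Of 4 lung markers 2 were detected, at 2.46 TPM in sum in replicate 1 and 2.33 TPM in replicate 2, and Nkx2-1 had no count. The part of heart or eye tissue in the Tbx5 values was not tested.

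Lists for cells in which Tbx15 and Tbx18 are known were detected in full, beside 65.4% of all protein coding genes. The facial mesenchyme, epithelium, skeletal muscle and cartilage lists were detected in full too, so this was not particular to those cells. All 9 mural cell markers were detected, at 447 and 405 TPM in sum, with log2 ratios between -0.08 and 0.20. All 5 markers of dermis and hair dermal papilla were detected, at 528 and 484 TPM in sum. Single genes carried most of these sums, Acta2 with 312 and 272 TPM and Crabp1 with 393 and 371 TPM, while Myh11 had 2.07 and 1.85 TPM and En1 had 1.49 and 1.66 TPM. All 4 bone markers were detected as well, at 657 TPM in sum in replicate 1 and 731 TPM in replicate 2.

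The 8 genes held 59.3% of the TPM of all 17 T-box family genes in replicate 1 and 58.6% in replicate 2, or 59.0 ± 0.514% (SD, n = 2). Nearly all of the rest lay on a pair of genes. Mga, whose large protein has both a T-box and a domain that pairs with Max, had 23.7 TPM in replicate 1 and 24.1 TPM in replicate 2. Tbx1, a regulator of the pharyngeal arches and the gene altered in DiGeorge syndrome, had 19.3 and 19.6 TPM. Mga lay between Tbx15 and Tbx3, and Tbx1 lay just below Tbx15 in both libraries.

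The remaining 7 family genes were not detected. Tbx6, of the presomitic mesoderm, had 0.57 and 0.65 TPM, and T, the notochord gene brachyury, had 0.21 and 0.73 TPM in replicates 1 and 2. Tbr1, of the cerebral cortex and olfactory bulb, had 0.14 TPM from 11 counts in replicate 1 and 0.41 TPM from 41 counts in replicate 2. Tbx21, of T lymphocytes, Tbx10 and Eomes stayed at 0.11 TPM or below. Tbx19, of the pituitary, had no count. At this depth 3 counts, a limit for counting error only, would make 0.10 TPM in replicate 1 and 0.0959 TPM in replicate 2. The deposited credibility bounds of Tbx19 reached higher, to 0.394 and 0.381 TPM. The family was therefore represented by a handful of genes, with Tbx3, Mga, Tbx15 and Tbx1 at the top.

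Tbx2 and Tbx4 lie near each other on chromosome 11, and Tbx3 and Tbx5 on chromosome 5, with other annotated genes between them and in both cases with the repressor first and on the same strand. Only 44473 bases separate Tbx2 from Tbx4, and 147943 bases separate Tbx3 from Tbx5. Tbx2 RNA was 3.84 times Tbx4 RNA in replicate 1 and 4.44 times in replicate 2. Tbx3 RNA was 26.0 times Tbx5 RNA in replicate 1 and 56.5 times in replicate 2. The repressor was the higher gene of each pair in both libraries, and the ratio of Tbx3 to Tbx5 varied with Tbx5, as Tbx3 was even.

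**Figure D3:**
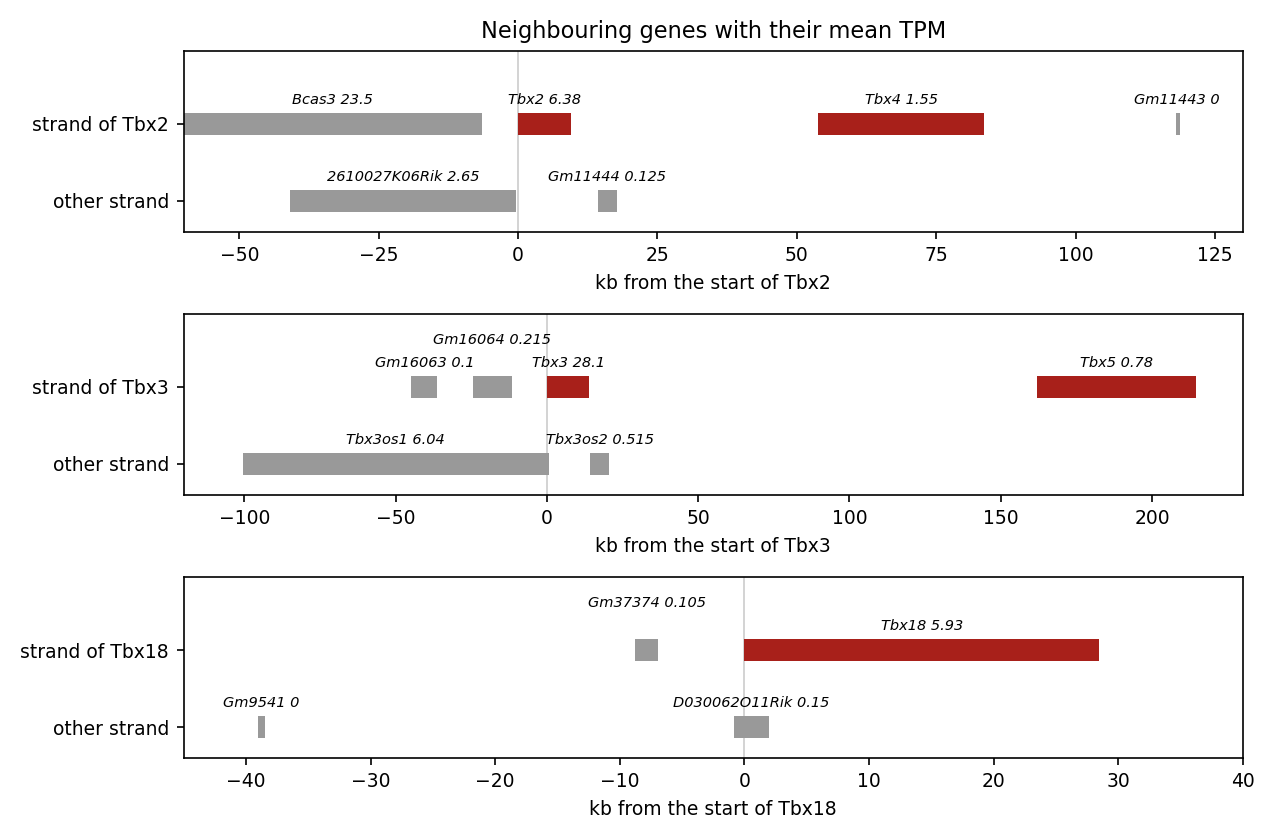
Maps of the Tbx2 and Tbx4, Tbx3 and Tbx5, and Tbx18 loci in kb from the start of the first-named gene, drawn in the direction of its transcription, with T-box genes in red and measured neighbours in grey, each with its mean TPM over the 2 libraries. Bcas3 runs past the left edge. Tbx3os1 at 6.04 TPM and D030062O11Rik at 0.15 TPM overlap the start of Tbx3 and of Tbx18.

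Within 50 kb of the 8 genes the annotation placed 20 other genes, of which 14 were measured and 4 were detected. The other 6, among them Gm43050 (divergent from Tbx5), Gm43120 (antisense to Tbx15) and Gm29824 (divergent from Tbx20), were not analysed here. Of all protein coding genes 65.4% were detected, but most of the measured neighbours are not protein coding. The share over genes of all types was not computed, so 4 of 14 cannot be read as high or low. Bcas3, upstream of Tbx2, had 21.5 TPM in replicate 1 and 25.6 TPM in replicate 2, and Wars2, which encodes the mitochondrial tryptophanyl-tRNA synthetase and lies upstream of Tbx15, had 9.43 and 8.76 TPM. The noncoding gene 2610027K06Rik starts 328 bases from the start of Tbx2 on the other strand, and had 2.69 and 2.60 TPM. The detected neighbours were thus coding genes upstream of Tbx2 and Tbx15 and noncoding genes beside Tbx2 and Tbx3.

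Antisense genes overlap Tbx3 and Tbx18. Tbx3os1 starts inside Tbx3 on the other strand and had 5.23 TPM in replicate 1, from 38.7 expected counts, and 6.85 TPM in replicate 2, from 47.8 expected counts. D030062O11Rik, which overlaps the first part of Tbx18, had 0.20 TPM and 0.10 TPM. Of all stretches of 100 bases in the Tbx18 transcripts, 15.9% had their complement in D030062O11Rik, and 0.253% of those in Tbx3 had theirs in Tbx3os1. No stretch of 100 bases of the 8 genes was shared with another gene on the same strand. The expected counts of Tbx3 and Tbx3os1 added up to whole numbers, 3139 in replicate 1 and 3508 in replicate 2, and those of Tbx18 and D030062O11Rik to 744 and 641. The strand setting of the counting is not given in the sources used here, so the reads of each of these pairs cannot be told apart with certainty, and the split between sense and antisense is uncertain.

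Transcripts were estimated for each gene from the same reads, with a percent of the gene's TPM for each of the 22 transcripts of the 8 genes. The transcript with the highest percent was the same in both libraries for all 8 genes, beside 89.3% of the 11770 genes that have at least 2 transcripts and reached 10 counts in each library. Only 6 of the 8 genes have at least 2 transcripts, since Tbx2-201 and Tbx5-201 are the only transcripts of their genes, and Tbx20 was called on 5 and 2 counts. Tbx18-201 took all of its gene's TPM in both libraries, and Tbx15-201, with 1806 coding bases, took 96.4% in replicate 1 and 93.1% in replicate 2. Tbx20-202 was given 75.5% and 78.9%, and Tbx20-201 was given 24.5% and 21.1%.

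Tbx3 was divided among 3 coding transcripts in stable proportions. Tbx3-203 took 45.6% in replicate 1 and 46.0% in replicate 2, Tbx3-201 took 30.9% and 33.2%, and Tbx3-202 took 20.0% and 19.0%. Tbx3-201 differs in its coding sequence by an extra exon of 60 bases, which keeps the reading frame and gives 2223 coding bases in place of 2163. As background, an alternatively used exon that lengthens the T-box of Tbx3 is known in mouse and human as exon 2a. Among the coding transcripts the share with the 60-base exon was 32.0% in replicate 1 and 33.8% in replicate 2, or 32.9 ± 1.26% (SD, n = 2). The exon lies at chr5:119675243-119675302 on the plus strand of GRCm38, and it is shown in capitals between 15 bases of its neighbours, above the same junction without it, because these letters are what separates the forms.
Tbx3-201 with the exon: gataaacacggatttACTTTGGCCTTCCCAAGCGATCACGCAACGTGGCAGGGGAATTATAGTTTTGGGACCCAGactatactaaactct
Tbx3-203 without the exon: gataaacacggatttactatactaaactct

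**Figure D4:**
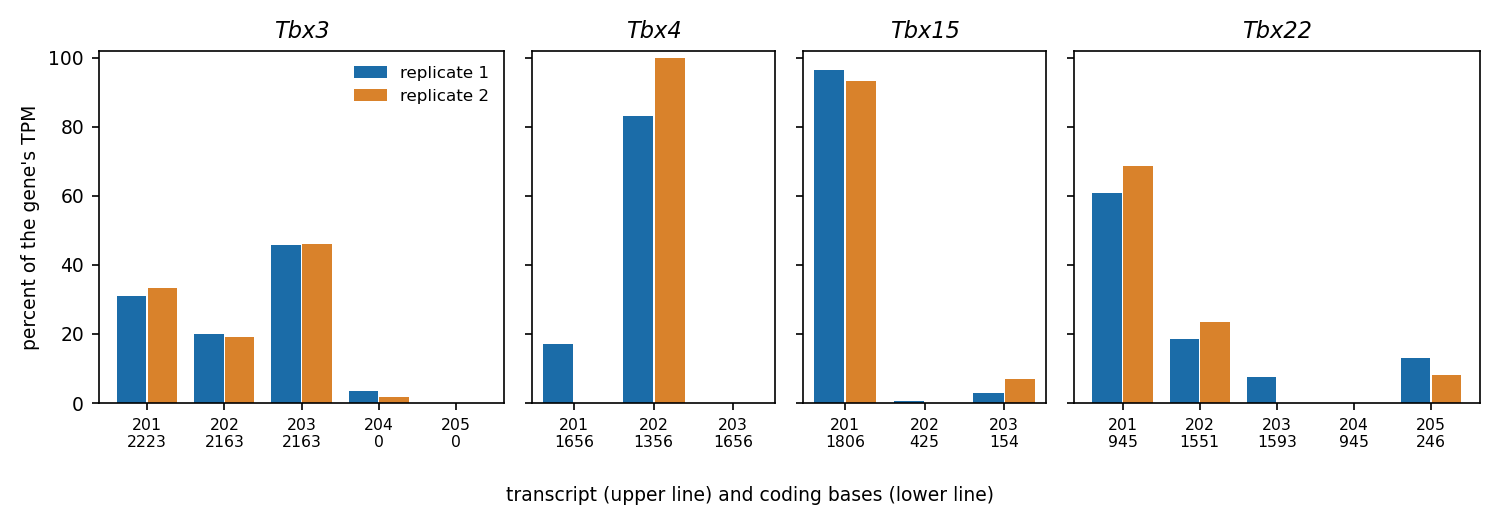
Percent of the gene's TPM taken by each transcript of Tbx3, Tbx4, Tbx15 and Tbx22, with replicate 1 as the left and replicate 2 as the right bar, and the number of coding bases (0 where none is annotated) under the transcript number. Tbx3 is divided among 3 transcripts, while Tbx15-201 takes 93.1% or more.

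Tbx4 and Tbx22 were both led by a transcript with an internal start and a shorter coding sequence. Tbx4-202, with 1356 coding bases, took 83.0% in replicate 1 and all of the TPM in replicate 2. Tbx4-201, which starts further upstream and has 1656 coding bases, took 17.0% in replicate 1, on 20.4 expected counts, and had none in replicate 2. By the posterior mean, another deposited estimate, Tbx4-202 took 76.7% and 82.9%, so the zero of Tbx4-201 in replicate 2 was not shared by both estimates.

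Tbx22-201, with 945 coding bases, took 60.9% of Tbx22 in replicate 1 and 68.5% in replicate 2. Tbx22-202, which starts upstream of it and has 1551 coding bases, took 18.5% and 23.5%. The transcripts with the start furthest upstream, Tbx22-203 and the nonsense-mediated decay form Tbx22-205, together took 20.6% in replicate 1 and 8.0% in replicate 2, on 10.1 and 1.91 expected counts. Tbx22-205 alone took 13.1% and 8.0%. By the posterior mean this upstream pair took 32.5% and 18.4%, and Tbx22-201 took 48.2% and 59.9%. These shares rest on a few reads that tell the forms apart, and their spread between the pools cannot be read as a change of start.

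The sequence just before these starts is shown because the transcripts of each gene differ by where they begin. Promoter windows of RefSeq (GRCm38.p6) were matched for 4 of the 8 genes, Tbx4, Tbx18, Tbx20 and Tbx22, with 6 windows in all. Capitals mark CpG pairs, and all lines run 5′ to 3′ on the plus strand and end at the base before the first base of the transcript named. The first line is chr11:85896515-85896764, and the Tbx22 lines are chrX:107667714-107667963, chrX:107676262-107676511 and chrX:107678765-107678962, the last of which is cut short where Tbx22-201 begins.
Tbx4-202: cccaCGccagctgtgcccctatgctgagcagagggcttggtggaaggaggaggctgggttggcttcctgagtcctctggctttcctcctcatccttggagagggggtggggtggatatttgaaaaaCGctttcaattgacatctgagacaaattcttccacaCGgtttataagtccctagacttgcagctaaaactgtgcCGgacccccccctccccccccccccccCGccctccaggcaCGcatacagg
Tbx22-203 and Tbx22-205: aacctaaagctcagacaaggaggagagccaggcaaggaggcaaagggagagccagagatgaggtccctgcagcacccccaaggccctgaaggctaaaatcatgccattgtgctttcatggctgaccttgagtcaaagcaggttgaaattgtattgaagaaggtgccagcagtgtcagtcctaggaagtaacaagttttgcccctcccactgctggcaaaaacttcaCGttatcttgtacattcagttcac
Tbx22-202: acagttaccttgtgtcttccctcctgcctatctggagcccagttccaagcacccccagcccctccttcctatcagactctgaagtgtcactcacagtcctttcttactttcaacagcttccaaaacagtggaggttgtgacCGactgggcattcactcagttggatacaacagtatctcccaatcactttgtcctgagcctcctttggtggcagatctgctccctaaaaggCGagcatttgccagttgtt
Tbx22-201: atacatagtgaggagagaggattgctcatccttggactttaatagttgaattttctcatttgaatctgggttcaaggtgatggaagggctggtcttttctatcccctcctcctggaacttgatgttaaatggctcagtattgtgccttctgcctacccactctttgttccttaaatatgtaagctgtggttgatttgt

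The Tbx4 window held 6 CpG pairs in its 250 bases, and the Tbx22 windows held 1, 2 and 1 in the same length. The pair of the last Tbx22 window lay in the bases cut off, so the line printed for Tbx22-201 holds none. The Tbx18 window held 15 and the Tbx20 window 22, beside a median of 6 and quartiles of 2 and 16 over 32851 promoter windows. The T-box binding letters AGGTGTGA, searched on both strands, were in 0 of the 6 windows and in 1.12% of all windows. The letters TATAAA, searched in the same way, were in 1 of the 6 windows, that of Tbx4, on the opposite strand, and in 12.4% of all windows. Tbx20, the lowest of the 4 genes in TPM, had the most CpG pairs, and Tbx18, the highest of the 4, had the next most. A link between CpG pairs and level was not tested.

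Lists of T-box partners, of palate regulators and of reported targets place the 8 genes among the genes they are known to work with. Of 14 co-repressors and partners 9 were detected, beside 65.4% of all protein coding genes. The histone deacetylase genes Hdac2 and Hdac1 had the highest levels, with 187 and 162 TPM in replicate 1 and 186 and 163 TPM in replicate 2. Of the Groucho co-repressors, Tle2 had 50.9 TPM in replicate 1 and 58.2 TPM in replicate 2, and Tle3 had 28.3 and 28.2 TPM. None of the 11 partners that reached 10 counts in each library was past 1.5-fold, beside 9.08% of all genes with that many counts. So small a list cannot be told apart from that share.

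**Figure D5:**
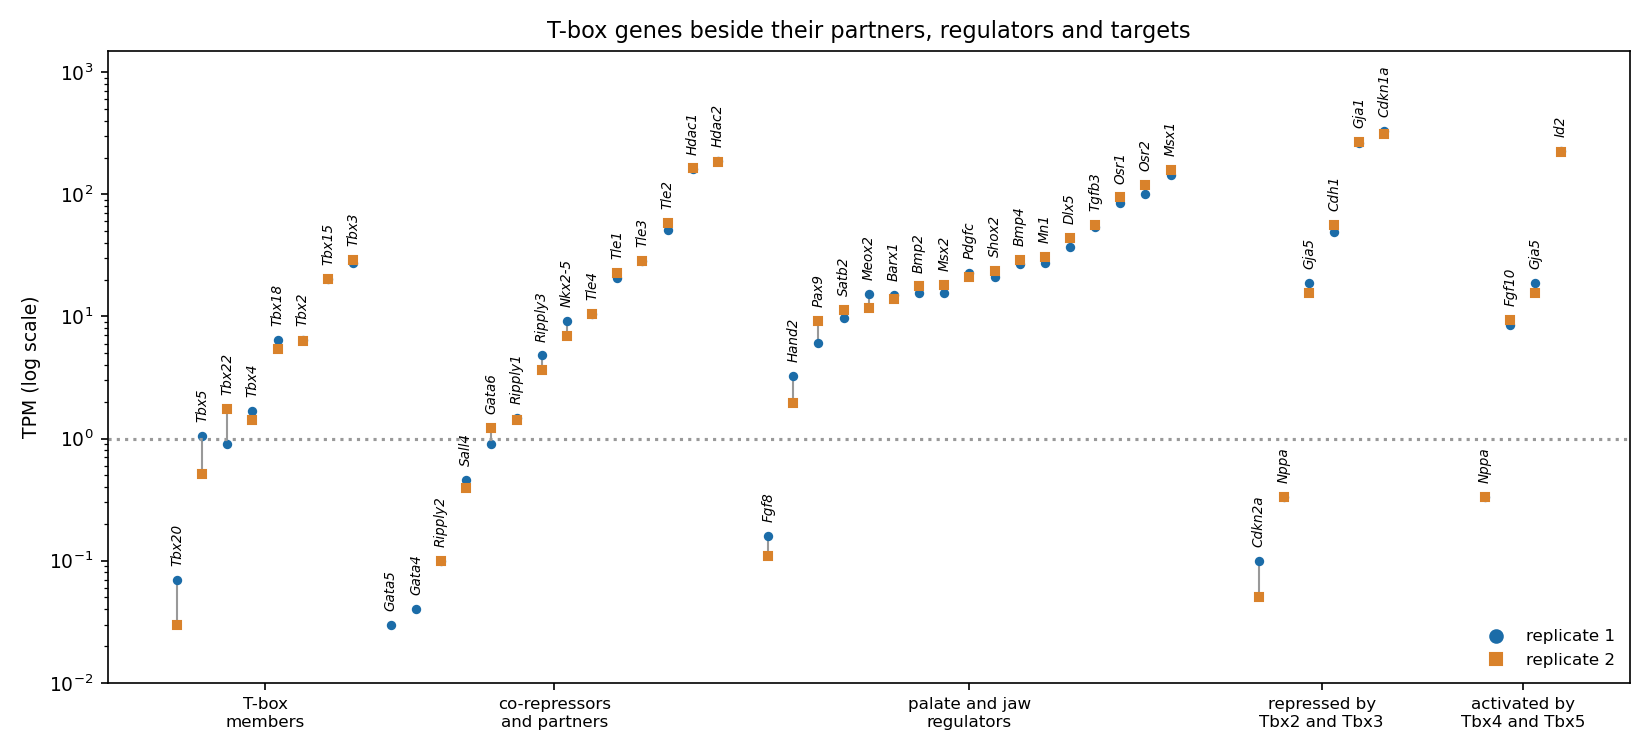
TPM on a log axis of the 8 T-box genes and of the genes in 4 lists, with replicate 1 as circles and replicate 2 as squares, ordered by mean level within each list. Genes with no count in replicate 2 (Gata4, Gata5) show replicate 1 only, Gja5 and Nppa are on both target lists, and the dotted line marks 1 TPM.

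Of 17 regulators of palate and jaw mesenchyme 16 were detected, beside 65.4% of all protein coding genes. Fgf8, with 3 counts in each library, was the exception. The homeobox gene Msx1 had 145 TPM in replicate 1 and 158 TPM in replicate 2. The palatal shelf regulators Osr2 and Osr1 had 99.9 and 85.7 TPM in replicate 1 and 120 and 94.4 TPM in replicate 2, and Tgfb3, which acts in palatal fusion, had 54.1 and 56.3 TPM. Between the replicates 2 of the 16 were past 1.5-fold, beside the background of 9.08%, and are named after their values were seen. Hand2, of the lower jaw, had 3.23 TPM in replicate 1 and 1.94 TPM in replicate 2, and Pax9, of palate and teeth, had 6.08 and 9.18 TPM. Of the 16, 12 were lower and 4 higher in replicate 1, with a median log2 ratio of -0.09, beside -0.0007 for all genes. Tbx22 was also lower in replicate 1, but a direction shared over 2 libraries holds no pattern.

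Of 6 genes reported elsewhere as repressed by Tbx2 or Tbx3, 4 were detected, beside 65.4% of all protein coding genes. The cell cycle inhibitor Cdkn1a had 331 TPM in replicate 1 and 314 TPM in replicate 2, and the gap junction gene Gja1 had 262 and 269 TPM. Cdh1, which encodes E-cadherin of epithelium, had 48.8 and 56.6 TPM, and Gja5, another gap junction gene, had 18.7 and 15.5 TPM. Several reported repression targets were therefore abundant in tissue that also contained Tbx3 RNA, and whether they share cells was not measured.

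Of 4 genes reported as activated by Tbx4 or Tbx5, 3 were detected, beside 65.4% of all protein coding genes. The helix-loop-helix inhibitor Id2 had 227 TPM in replicate 1 and 223 TPM in replicate 2, Gja5 had the levels given above, and the growth factor gene Fgf10 had 8.44 and 9.29 TPM. Nppa, on both target lists and a heart gene, had 0.33 TPM in each library. The 3 activation targets that reached 10 counts in each library had log2 ratios between -0.14 and 0.24. Tbx4 stood at 0.22, and Tbx5 stood at 1.02 on 99 and 50 counts. Whether these targets follow Tbx4 or Tbx5 was not tested.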

How the data were processed

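The authors quantified each library by itself against mouse transcripts (mm10, annotation M4), per a deposited text file. Aligner, quantifier, their versions and strandedness were not given in the sources used here. Per the file headers, the authors' tables held an expected count and TPM per gene and transcript, a posterior mean TPM, and the percent of a gene's TPM per transcript. The deposited credibility bounds of TPM, whose level is not stated, were recorded as a score. TPM was scaled over all 69691 deposited rows, including 97 spike-ins and 26248 numbered sequences, so spike-in RNA lowers gene TPM. Total counts were 37128010 and 38543623.

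Names, positions and transcript structures came from GENCODE M21 (GRCm38), which named 42462 of 43346 gene identifiers. Of the 22 transcripts, 19 had the deposited length in it. Exon letters came from its transcripts and promoters from RefSeq.

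Expected counts were rounded to whole numbers for ratios of replicate 1 over replicate 2, with TMM factors of 0.989 and 1.01 (edgeR 4.0.16, R 4.3.3), a prior count of 2 and a minimum of 10 counts in each library. Called meant past 1.5-fold. Intervals are exact binomial at 95% on scaled counts and cover counting error only. DESeq2 1.42.0 gave other size factors. The ratio step was tested on simulated data. Tables were made in Python 3.11.15 (pandas 2.3.3, numpy 2.4.6), intervals with scipy 1.17.1 and figures with matplotlib 3.10.9.

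The members, lists and settings were chosen with earlier results of these data known. Named were all members and other family genes, the 4 most abundant genes of each partner, regulator and target list and any without a count, transcripts at 10% or more in either library, and neighbours within 50 kb that were detected, antisense or divergent. Marker lists were facial mesenchyme, mural cells, heart muscle, skeletal muscle, retina and eye, branchiomotor neurons, limb, lung, epithelium, cartilage, bone, and dermis and hair dermal papilla.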

Additional observations from a re-analysis of the deposited data

How the results depend on the processing

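Spike-in scaling changed the replicate ratios most, as it moved the median log2 ratio of all genes by 0.65. Under it 5 of the 7 genes were past 1.5-fold (Tbx2, Tbx4, Tbx5, Tbx15 and Tbx18, all higher in replicate 1), and the median absolute log2 ratio was 0.69. Tbx22 stood at -0.26 under it and was no longer past 1.5-fold. The shift of 0.65 by itself exceeds 1.5-fold, and the share of all genes past the fold under spike-in scaling was not computed. A minimum of 100 counts in both libraries kept 5 genes, of which 0 were past 1.5-fold, with a median of 0.10, because it leaves out Tbx5 and Tbx22. At 2-fold 1 gene, Tbx5, was past the limit. DESeq2 size factors, a prior count of 0.5, TPM ratios and a smaller fold left the count at 2, and no count filter gave 3, with Tbx20 added. The number of detected genes was 6 without either replicate, 6 by posterior mean TPM, 5 with TPM rescaled over Ensembl genes, 7 at 0.5 TPM and 4 at 2 TPM. The share of family TPM ran from 58.6% to 59.3% over its alternatives. Rescaling over Ensembl genes multiplied the levels by 1.08 to 1.10. The posterior mean multiplied them by 0.979 to 1.10, and that of Tbx20 by 1.60. Both kept the order of the means, while either replicate alone changed the order within Tbx2 and Tbx18 or within Tbx4, Tbx22 and Tbx5. The leading transcript was the same in both libraries for 8 genes by posterior mean and for 7 by transcript counts, where Tbx20 differed. No paired analysis was possible because there was only 1 group. Depth limits Tbx20, and the transcript shares of Tbx4 and Tbx22.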
